A study of Arabidopsis thaliana with 69 samples.

Results

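MicroRNAs (miRNAs) of Arabidopsis thaliana embryos were compared between the early heart and late heart stages, the interval in which the cotyledon primordia grow out of the radially patterned embryo. Small RNA sequencing of 3 early heart and 3 late heart libraries gave a level for each of 427 annotated mature miRNAs in RPM (reads of 20 to 24 bases, scaled to 1000000 genome-matching reads). The 63 mature miRNAs that averaged 10 RPM or more in one of the stages were tested. Of these, 51 reached that level in both stages, 4 only in early heart and 8 only in late heart. Of the other 364 mature miRNAs, 168 were listed at 0 in all 6 libraries and 196 were above 0 but under the minimum. Just outside the minimum were miR398c-5p and miR398a-3p, with 7.76 and 8.91 RPM in their higher stage, and just inside were miR850 and miR162a-5p, with 10.01 and 10.5 RPM.

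All 6 libraries came from wild-type embryos of the accession Col-0, grown at the same temperature and day length with no treatment, and each replicate was RNA from a separate pool of dissected embryos collected on a different day. The levels are therefore averages over all the cells of whole embryos, and more cells of a type and more miRNA per cell cannot be told apart. Depth differed between the stages: the early heart libraries held 1665910 to 2957950 genome-matching reads and the late heart libraries 11299000 to 13898204. A level of 3 reads corresponded to 1.01 to 1.80 RPM in early heart and 0.216 to 0.266 RPM in late heart, so low early heart values carry the larger counting error. As a check of the tissue, miRNAs described as embryo-enriched were set beside 1 leaf and 1 floral bud library of the same series. miR831-3p had 220 to 257 RPM in early heart and 197 to 390 RPM in late heart, 0 in leaf and 39.8 RPM in floral bud. The other tested ones were less particular to embryos: miR845a and miR845b had 24.7 and 14.5 RPM in leaf but 1118 and 564 RPM in floral bud, and miR156b-3p had means of 498 RPM in early heart and 479 RPM in late heart against 311 RPM in leaf and 33.6 RPM in floral bud. Those under the minimum were all at 0 in leaf. Of these, miR3440b-3p had means of 5.67 RPM in early heart and 5.95 RPM in late heart, and 0.346 RPM in floral bud. miR866-3p had means of 4.71 and 1.99 RPM and 3.11 RPM in floral bud. miR831-5p had means of 0.611 and 0.199 RPM and 1.73 RPM in floral bud.

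Plant miRNAs are cut from hairpin transcripts by DICER-LIKE1 (DCL1), and 1 strand of the duplex, the guide, is loaded into an ARGONAUTE protein while the other, the passenger strand, is mostly degraded. The loaded guide pairs with target transcripts over nearly its whole length and directs their cleavage. Many conserved plant guides target transcription factor families that pattern organs and set developmental timing, and others target the small RNA machinery itself. A uridine as the first base favours loading into ARGONAUTE1.

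The results turn on a few sequences that differ from one another at a single base, so these are shown with the other sequences whose levels differed most. The sequences are from RefSeq for assembly TAIR10.1, the capitals mark the seed (bases 2 to 8), and all are written 5′ to 3′. miR319c shares its seed with miR319a and miR319b, miR156g with the other miR156 guides, and miR158b with miR158a-3p.
miR319a and miR319b: uUGGACUGaagggagcucccu
miR319c: uUGGACUGaagggagcuccuu
miR159a: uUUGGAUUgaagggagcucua
miR159b-3p: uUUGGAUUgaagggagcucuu
miR159c: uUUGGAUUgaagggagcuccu
miR156a-5p to miR156f-5p: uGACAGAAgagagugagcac
miR156g: cGACAGAAgagagugagcac
miR158a-3p: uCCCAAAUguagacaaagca
miR158b: cCCCAAAUguagacaaagca
miR846-5p: cAUUCAAGgacuucuauucag
miR846-3p: uUGAAUUGaagugcuugaauu
miR390b-3p: cGCUAUCCauccugaguucc
miR447a-3p and miR447b: uUGGGGACgagauguuuuguug

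In TAIR10.1 coordinates, miR319c lies at chr2:17029870-17029890 on the plus strand, miR390b-3p at chr5:23637034-23637053 on the plus strand, and both miR846 arms come from a single gene at chr1:22577426-22577446 and chr1:22577662-22577682 on the plus strand. miR158b lies at chr1:20772273-20772292 on the plus strand. None of these overlaps another annotated gene. miR156g lies at chr2:8412589-8412608 on the minus strand and overlaps the protein-coding gene AT2G19420, which is annotated on the opposite strand.

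The summed miRNA level was higher in late heart than in early heart. It was 25033, 27421 and 31914 RPM in early heart and 37091, 41774 and 40695 RPM in late heart. The stages did not overlap, and the late heart mean was 1.42-fold higher (exact permutation test, two-sided, p = 0.1, n = 3 per stage, the smallest p that 3 against 3 libraries can give). The same 10 sequences made up most of the total at both stages, with 83.0% of miRNA RPM in early heart and 83.6% in late heart. The shares of miRNA reads of each length were also alike: 21-base reads were 68.9% to 71.7% of miRNA RPM in early heart and 68.4% to 71.8% in late heart, and no length from 20 to 24 bases passed the test (exact permutation tests, adjusted p = 1 for each of 5 lengths). At full depth 127 to 144 mature miRNAs had at least 1 read in early heart and 186 to 203 in late heart. At the depth of the shallowest library, the expected numbers were 129.0 ± 2.0 (SD, n = 3) and 135.2 ± 2.1 (SD, n = 3) with an exact permutation p of 0.1, a gap of 6.18 against 59.7 at full depth.

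An RPM value is relative to all genome-matching small RNAs, and most miRNAs shifted upward together on that scale. Among 49 distinct sequences tested, the median log2 change from early to late heart was 0.57, and 40 of the 49 had a positive change. After scaling to the total miRNA reads of each library, the median was 0.08, and with the TMM factors of edgeR it was −0.08. A change is therefore given first in RPM and, where it matters, relative to total miRNA as well. The plot of change against level shows this shared shift.

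**Figure D1:**
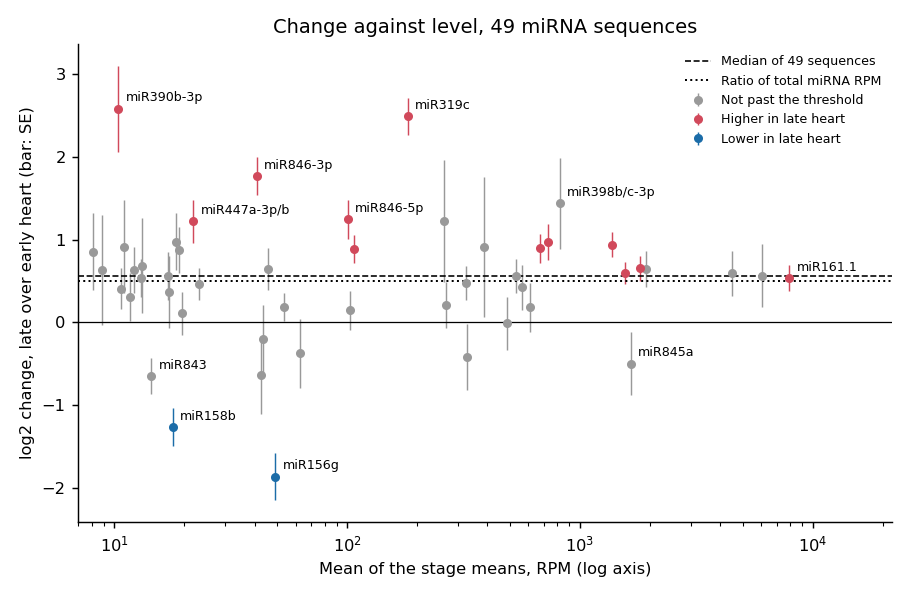
Log2 change in RPM from early heart to late heart (y axis, bars are the SE of the limma fit) against the mean of the stage means (x axis, RPM, log axis) for 49 distinct miRNA sequences. Most points lie near the dashed median of 0.57, miR390b-3p, miR319c and miR846-3p lie farthest above it, and miR156g and miR158b lie farthest below.

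Of the 63 mature miRNAs as listed, 11 were higher in late heart (17.5% of those tested) and 2 were lower (3.17%) by limma with Benjamini-Hochberg adjustment at 0.05. In 27 of the 63 (42.9%), the libraries of the stages did not overlap. With the replicate number as a block, limma called 1 higher and 0 lower, where 20 higher and 2 lower had an unadjusted p under 0.05, and edgeR without the block called 6 and 2. Scaling to total miRNA reads or by TMM gave 1 higher and 3 lower, and DESeq2 gave 5 and 4. Leaving out 1 library also changed the counts. They were 7 higher and 2 lower without early heart replicate 1, 2 and 0 without early heart replicate 2, and 1 and 0 without any 1 of the late heart replicates.

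The listed levels also depended on how reads were assigned to loci that encode the same mature sequence. Of the 63 tested, 29 share their sequence with another listed miRNA, and a read from such a sequence cannot be tied to a locus. The single largest listed change was that of miR156d-5p, with 0, 0 and 31.8 RPM in early heart and 384, 272 and 334 RPM in late heart. Its sequence is also that of miR156b-5p, which held 2341 to 4852 RPM of it in early heart and 4641 to 5292 RPM in late heart. The miR166 guide, encoded at 7 loci, was divided differently in each library: miR166g was listed at 0 in early heart replicate 1 and late heart replicate 1 and at 709 RPM in late heart replicate 3, where miR166e-3p and miR166f were at 0. Levels listed for a single locus of these families are therefore uncertain.

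**Figure D2:**
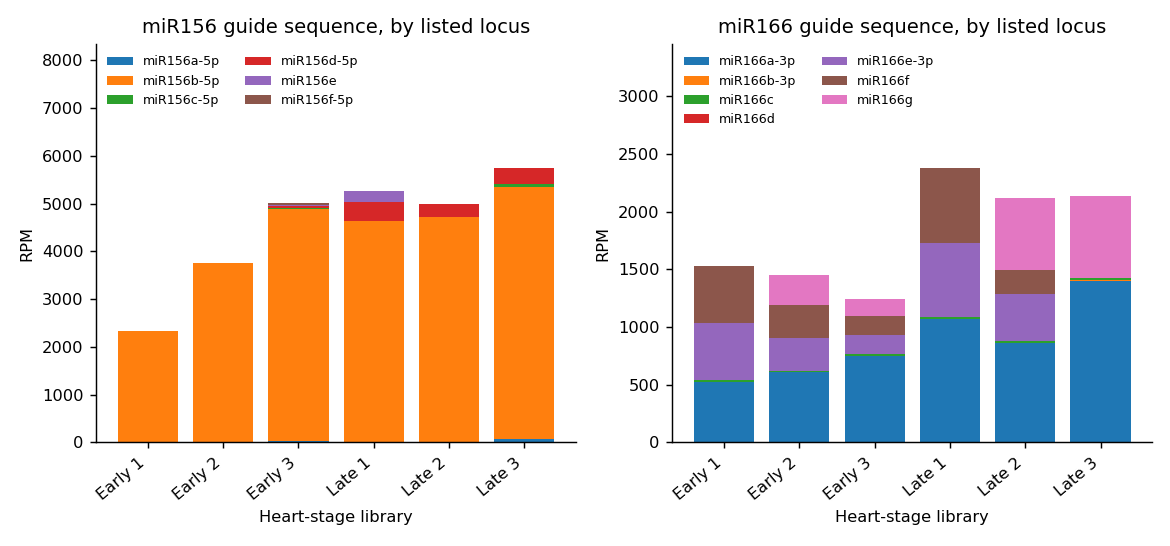
RPM (y axis) assigned to each listed locus of the miR156 guide sequence (left) and the miR166 guide sequence (right) in the 6 heart-stage libraries, stacked by locus. The height of a bar is the level of the sequence, and its division changes between replicates of a stage, as for miR166g, listed at 0 in 2 of the 6 libraries.

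Levels were therefore summed over identical sequences, and the rest of the text describes these sums. Replicates then agreed more closely, with Pearson's r across sequences of 0.941 to 0.981 between early heart replicates and 0.978 to 0.991 between late heart replicates, against 0.822 to 0.882 and 0.654 to 0.842 for listed miRNAs. Of the 49 sequences, 12 were higher in late heart (24.5%) and 2 were lower (4.08%) by limma at an adjusted p of 0.05, and the libraries of 24 (49%) did not overlap between stages. Relative to total miRNA, 4 were higher and 3 were lower. The 4 were miR390b-3p, miR319c, miR846-3p and miR846-5p, and the 3 were miR156g, miR158b and miR843. TMM scaling gave 2 higher and 3 lower, and DESeq2 gave 3 and 3. The count of higher sequences was 5 without late heart replicate 1 and 7 without late heart replicate 3, and all 5 of the former remained past the threshold without any 1 of the 6 libraries: miR319c, miR846-3p, miR846-5p, miR159a and miR168a/b-5p. miR156g and miR158b likewise remained lower in all 6 of those fits. In the fits of listed miRNAs, only miR319c of these stayed past the threshold without any 1 library (limma, adjusted p up to 0.045). The largest adjusted p there was 0.079 for miR846-3p, 0.107 for miR846-5p, 0.093 for miR159a and 0.113 for miR168a-5p. It was 0.093 for miR156g and 0.107 for miR158b.

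**Figure D3:**
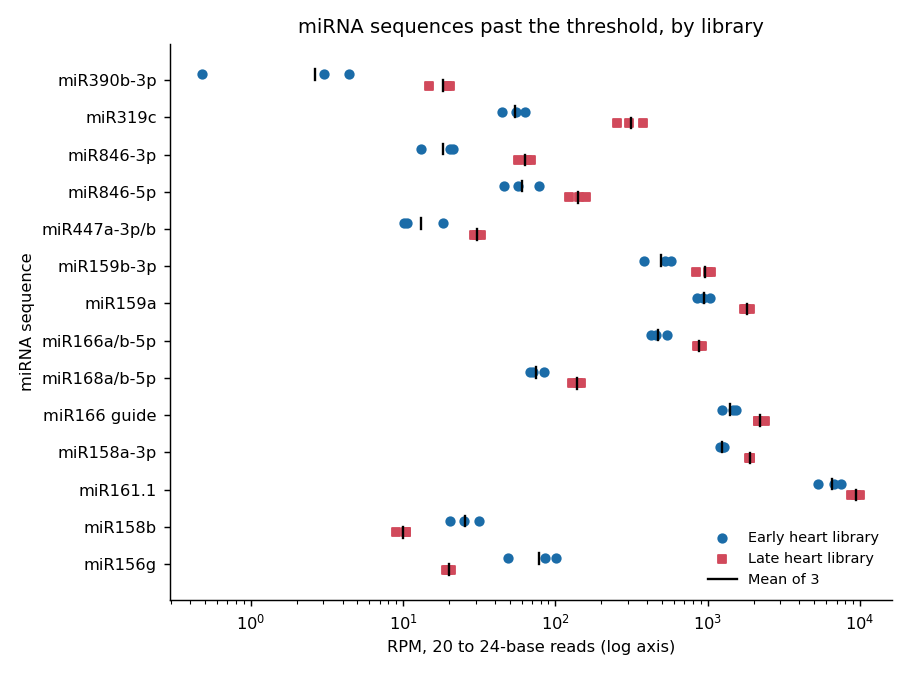
RPM of 20 to 24-base reads (x axis, log axis) of the 14 sequences past the threshold, with a point for each early heart and late heart library and a black bar at each mean of 3. The libraries of the stages do not overlap for any of the 14, and the lowest early heart value of miR390b-3p, 0.481 RPM, stands on 1 read.

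The lists below group the sequences by the known targets of their guides. In the list of guides that target transcription factors, 4 of 12 sequences tested rose, 1 fell and 7 did not pass the test, beside 12 and 2 of all 49 (24.5% and 4.08%). The median log2 change of the list was 0.58, beside 0.57 for all 49.

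miR319 directs cleavage of TCP transcripts, whose proteins restrain cell proliferation in growing leaf primordia. miR319c had 55.3, 44.4 and 63.6 RPM in early heart and 373, 254 and 306 RPM in late heart. Every late heart library was thus well above every early heart library. The log2 change was 2.49 ± 0.23 (SE; limma, adjusted p = 0.00091), and it was 1.99 relative to total miRNA (adjusted p = 0.0027). The sequence of miR319a and miR319b, which differs from it by C20U (counted from 1 at the 5′ end, with the base of miR319a first), moved the other way in its mean: it had 630, 310 and 225 RPM in early heart and 312, 277 and 212 RPM in late heart, and did not pass the test (log2 change −0.42 ± 0.40, SE; limma, adjusted p = 0.40). As a result, miR319c was 8.78%, 14.3% and 28.3% of miR319a/b in early heart and 119%, 91.7% and 144% in late heart (exact permutation p = 0.1, adjusted p = 0.15 over 9 such pairs). The lengths of their reads differed too: 22-base reads were 81.8% of miR319c RPM in early heart and 92.4% in late heart, and 12.7% and 13.7% of miR319a/b RPM. Summed as a family, the miR319 guides had means of 443 RPM in early heart and 578 RPM in late heart, and the stages overlapped. This sum did not pass the test (log2 change 0.47 ± 0.36, SE, limma on summed families, adjusted p = 0.30).

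miR159, closely related to miR319 in sequence, targets the GAMYB-like genes MYB33 and MYB65. miR159a had 1040, 926 and 851 RPM in early heart and 1724, 1774 and 1901 RPM in late heart, a log2 change of 0.94 ± 0.16 (SE; limma, adjusted p = 0.0082). miR159b-3p, which differs from it only by A21U, had 527, 577 and 381 RPM in early heart and 1048, 1000 and 839 RPM in late heart, a log2 change of 0.97 ± 0.22 (SE; limma, adjusted p = 0.015), though it missed the threshold without late heart replicate 1 or 2 (adjusted p up to 0.073). Both rose by like amounts, and miR159b-3p stayed at 44.7% to 62.3% of miR159a in early heart and 44.2% to 60.8% in late heart. Their changes relative to total miRNA, 0.43 and 0.47, did not pass the test (limma, adjusted p = 0.28 and 0.39). The third member, miR159c, had 99.1, 73.2 and 40.9 RPM in early heart and 67.3, 63.3 and 31.5 RPM in late heart and did not pass the test. It was 10.7% to 18.8% of miR159b-3p in early heart and 3.75% to 6.42% in late heart, without overlap (exact permutation p = 0.1, adjusted p = 0.15). Reads of 20 bases were 78.8% of miR159c RPM in early heart and 85.6% in late heart, against 17.7% and 14.5% for miR159b-3p. The ratio thus compares levels with different main read lengths.

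miR165 and miR166 restrict the HD-ZIP III genes that specify the upper side of lateral organs and the vasculature. The miR166 guide had 1528, 1454 and 1246 RPM in early heart and 2383, 2121 and 2133 RPM in late heart, a log2 change of 0.65 ± 0.15 (SE; limma, adjusted p = 0.016). Relative to total miRNA its change was 0.15 and under TMM scaling −0.019, and it missed the threshold without early heart replicate 2 or any 1 late heart replicate (adjusted p up to 0.089). The miR165 guide, which differs from it by U17C, had a log2 change of 0.56 ± 0.21 (SE; limma, adjusted p = 0.085), and its level was 28.8% to 33.1% of miR166 in early heart and 25.5% to 30.7% in late heart. The stages overlapped in this ratio.

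The guides of miR156 repress SPL genes, which promote the juvenile to adult transition and embryo maturation. The sequence shared by miR156a to f had 2341, 3754 and 5012 RPM in early heart and 5255, 4989 and 5753 RPM in late heart. Its early heart libraries spread widely and it did not pass the test (log2 change 0.59 ± 0.28, SE; limma, adjusted p = 0.14). miR156g, which differs by U1C, fell: it had 48.6, 85.9 and 100 RPM in early heart and 20.7, 19.7 and 19.1 RPM in late heart. The log2 change was −1.86 ± 0.29 (SE; limma, adjusted p = 0.0073). Relative to miR156a to f it was 2.08%, 2.29% and 2.00% in early heart and 0.395%, 0.396% and 0.332% in late heart.

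The remaining guides of this list stayed under the threshold. miR167, which targets ARF6 and ARF8, had a log2 change of 0.63 ± 0.28, miR164c-5p, which targets CUC genes, 0.37 ± 0.43, and miR160, which targets ARF10, ARF16 and ARF17, 0.31 ± 0.29 (SE, n = 3 per stage). All 3 had under 22 RPM in each library. miR394a, miR394b-5p and miR171b-3p, whose targets act in shoot meristems, were under the minimum, with at most 3.85 RPM in any of the 6 libraries.

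Of 4 sequences that target the small RNA machinery, miR168 rose and the other 3 did not pass the test, beside 24.5% higher over all 49 (median log2 change of the list 0.52, beside 0.57 for all). miR168a/b-5p, which targets AGO1, had 67.8, 71.4 and 84.5 RPM in early heart and 129, 147 and 141 RPM in late heart, a log2 change of 0.89 ± 0.17 (SE; limma, adjusted p = 0.010) and of 0.39 relative to total miRNA. Most of this RPM was in 24-base reads, 69.7% in early heart and 69.1% in late heart. Only 16.8% and 18.1% was in 21-base reads, so the level is not that of the 21-base guide alone. miR162a/b-3p, which targets DCL1, was the second most abundant sequence, with 2574, 5364 and 7365 RPM in early heart and 6423, 8021 and 6406 RPM in late heart. The highest early heart library was above 2 late heart libraries, and the change did not pass the test (log2 change 0.57 ± 0.38, SE; limma, adjusted p = 0.26). miR403-3p, which targets AGO2, changed by 0.47 ± 0.21 and miR390a/b-5p, which starts TAS3 trans-acting siRNA production, by 0.11 ± 0.26.

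miR161.1, a guide for transcripts of pentatricopeptide repeat (PPR) proteins, was the most abundant sequence at both stages. It had 5275, 6725 and 7496 RPM in early heart and 8721, 9922 and 9415 RPM in late heart. This made up 23.1% of miRNA RPM in early heart and 23.5% in late heart. On the RPM scale it rose (log2 change 0.54 ± 0.16, SE; limma, adjusted p = 0.041), it missed the threshold by edgeR (adjusted p = 0.050) and without early heart replicate 2 or any 1 late heart replicate (adjusted p up to 0.16), and its change was 0.03 relative to total miRNA, −0.13 under TMM scaling and −0.023 by DESeq2.

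The 2 sequences of the nutrient and stress list that were tested, both linked to copper supply, did not pass. miR398b/c-3p, which targets copper superoxide dismutases, had 823, 296 and 263 RPM in early heart and 606, 1579 and 1335 RPM in late heart. miR408-3p, which targets copper-binding proteins, had 532, 151 and 112 RPM in early heart and 137, 934 and 467 RPM in late heart. Each was highest of its stage in early heart replicate 1 and lowest of its stage in late heart replicate 1, so that the stages overlapped. The log2 changes were 1.44 ± 0.55 (SE; limma, adjusted p = 0.090) and 0.91 ± 0.85 (SE; limma, adjusted p = 0.40). Early heart replicate 1 was also the highest library of its stage for miR845a, with 3200 RPM against 1325 and 1445 RPM, and for miR158a-5p, with 99.1 RPM against 35.4 and 30.1 RPM.

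Among 15 passenger strands, 2 rose and none fell, beside 24.5% higher and 4.08% lower over all 49, with a median log2 change of 0.56. miR390b-3p, the passenger strand of the miR390b hairpin, had 0.481, 3.00 and 4.39 RPM in early heart and 19.6, 20.3 and 14.7 RPM in late heart. The early heart values stand on 1, 5 and 13 reads. The log2 change was 2.58 ± 0.52 (SE; limma, adjusted p = 0.011), and it missed the threshold without late heart replicate 1 (adjusted p = 0.054). It also missed the threshold under TMM scaling, and its adjusted p was up to 0.070 over all settings run. The guide on the other arm did not pass the test, and miR390b-3p was 2.78% to 25.5% of that guide in early heart and 55.6% to 134% in late heart (exact permutation p = 0.1, adjusted p = 0.6 over 14 arm pairs). The passenger strand of the related hairpin, miR390a-3p, was the more abundant and had 82.7, 90.0 and 119 RPM in early heart and 94.1, 135 and 94.6 RPM in late heart. miR166a/b-5p also rose, from 421, 454 and 542 RPM to 847, 860 and 916 RPM, with a log2 change of 0.90 ± 0.17 (SE; limma, adjusted p = 0.010), but it missed the threshold without early heart replicate 2 or late heart replicate 1 or 3 (adjusted p up to 0.058). miR173-3p, the fourth most abundant sequence by the mean of both stages, had 1253 to 1865 RPM in early heart and 2048 to 2828 RPM in late heart and did not pass (limma, adjusted p = 0.067). It was far above its guide, miR173-5p, which had at most 1.86 RPM in any of the 6 libraries. miR390a-3p was also above its guide, whose means were 18.5 RPM in early heart and 20.5 RPM in late heart. Passenger strands are named here by the known guide arm, not by level. In the 14 hairpins with both arms measured, no arm ratio could pass, as the smallest p of the exact permutation test is 0.1. The ratio did not overlap between stages for the miR390b and miR158a hairpins and overlapped for the others.

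The other 15 sequences belong to miRNAs outside these lists, many of them young in evolution, and 4 rose and 1 fell, near the 24.5% and 4.08% over all 49. Both arms of miR846, found in Arabidopsis and its relatives and directed at jacalin-like lectin transcripts, rose. miR846-3p had 21.2, 20.4 and 13.2 RPM in early heart and 64.6, 56.6 and 68.8 RPM in late heart (log2 change 1.76 ± 0.23, SE; limma, adjusted p = 0.0040). miR846-5p had 46.2, 56.4 and 77.4 RPM in early heart and 123, 142 and 158 RPM in late heart (log2 change 1.24 ± 0.24, SE; limma, adjusted p = 0.010). Both remained past the threshold relative to total miRNA, with changes of 1.27 and 0.74, while miR846-5p missed it under TMM scaling (log2 change 0.58, adjusted p = 0.21) and by DESeq2 (0.68, adjusted p = 0.0502). miR447a-3p/b had 10.6, 10.2 and 18.3 RPM in early heart and 30.5, 29.3 and 32.3 RPM in late heart (log2 change 1.22 ± 0.26, SE; limma, adjusted p = 0.013), and missed the threshold without late heart replicate 1 or 3 (adjusted p up to 0.059).

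miR158a-3p had the smallest SD relative to its mean among the 10 most abundant sequences, with 1201, 1255 and 1281 RPM in early heart and 1882, 1898 and 1860 RPM in late heart. Its log2 change was 0.59 ± 0.13 (SE; limma, adjusted p = 0.015) and 0.09 relative to total miRNA, turned to −0.079 under TMM scaling, and it missed the threshold without early heart replicate 2 or any 1 late heart replicate (adjusted p up to 0.092). miR158b, which differs from it by U1C, fell, from 20.2, 25.2 and 31.4 RPM to 9.0, 10.4 and 10.4 RPM (log2 change −1.26 ± 0.23, SE; limma, adjusted p = 0.010). Of miR158a-3p it was 1.68%, 2.01% and 2.46% in early heart and 0.478%, 0.550% and 0.558% in late heart. miR843 had 17.3, 15.6 and 20.6 RPM in early heart and 12.3, 10.8 and 9.85 RPM in late heart, without overlap. It did not pass on the RPM scale (log2 change −0.65 ± 0.21, SE; limma, adjusted p = 0.064) and passed relative to total miRNA, under TMM scaling and by DESeq2 (adjusted p = 0.013, 0.012 and 0.00028). miR845a, which pairs with primer binding sites of retrotransposons, and miR845b did not pass, with log2 changes of −0.50 ± 0.38 and 0.18 ± 0.29 (SE, n = 3 per stage).

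The sequences that fell, miR156g and miR158b, share a feature the selection did not use: each carries a cytidine in place of the first uridine of a far more abundant miRNA. In the 18 wild-type embryo libraries of the series other than globular and early heart, miR156g was 0.332% to 0.452% of miR156a to f, so that the early heart share of 2.00% to 2.29% stood above every one of them. The globular libraries had 0.638% to 0.820%. miR158b was 0.398% to 0.558% of miR158a-3p in the 15 libraries from late heart on. Before that it was 1.81% to 2.41% in preglobular, 0.780% to 1.36% in globular and 1.68% to 2.46% in early heart libraries. Its early heart share thus overlapped that of preglobular embryos. Reads were aligned without mismatches, so a read of the abundant miRNA with an altered first base would be counted as the rarer one. Whether such reads contribute was not tested.

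**Figure D4:**
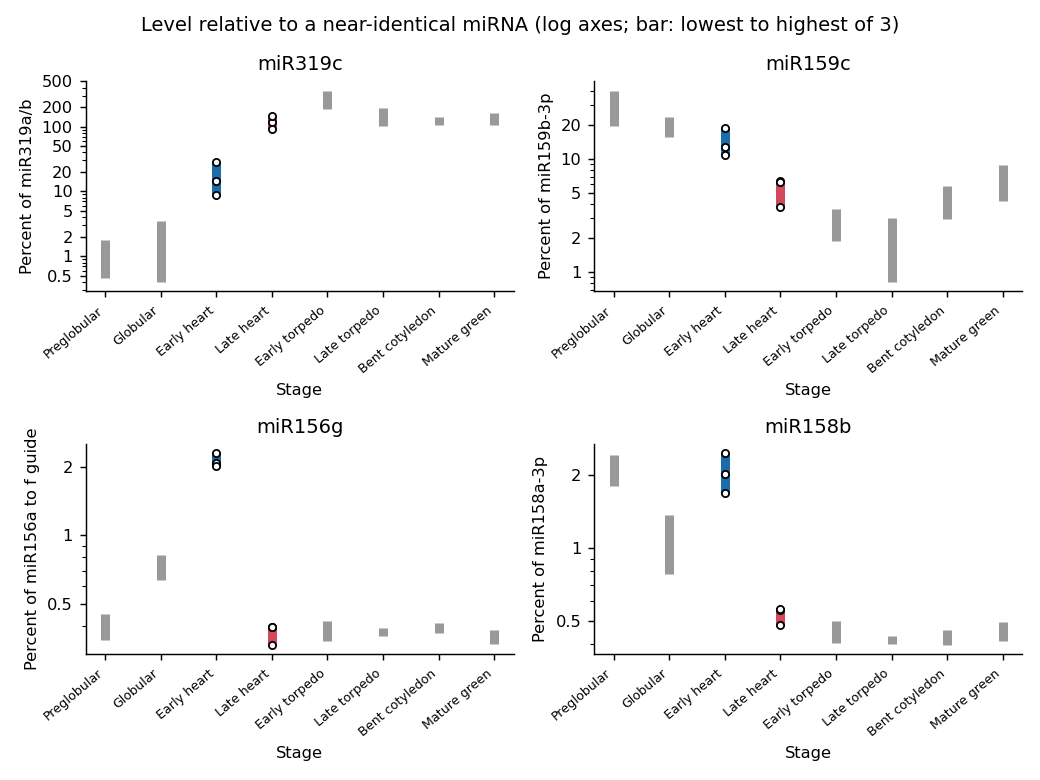
Level of 4 miRNAs as a percent of a near-identical miRNA (y axes, log scale) across 8 embryo stages (x axes). Bars run from the lowest to the highest of 3 libraries, with early heart in blue, late heart in red and white points for their libraries. miR319c rises to about the level of miR319a/b by late heart, while miR156g and miR158b are at 2.00% or above and 1.68% or above in early heart and under 0.56% in late heart.

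Set in the whole series, all 12 sequences that rose had a higher mean in early torpedo than in late heart, as did 35 of all 49 tested. Of the 12, 10 had a lower mean in globular than in early heart embryos, beside 39 of the 49. The highest stage of the 12 was late torpedo for 6, and early torpedo, bent cotyledon and mature green for 2 each. miR319c had means of 3.64 RPM in globular, 54.4 in early heart, 311 in late heart and 977 in early torpedo embryos. miR156g and miR158b followed another course, with means of 21.6 and 7.17 RPM in globular, 78.3 and 25.6 in early heart, 19.9 and 9.94 in late heart, and 24.7 and 18.1 in early torpedo embryos. In globular embryos of dcl1-5, a mutant allele of DCL1, miR319c, miR156g and miR158b had means of 0.879, 0.983 and 0.246 RPM.

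Cleavage of target transcripts was read in nanoPARE libraries of the same stages, which count the 5′ ends of RNA at predicted miRNA sites and were not used to choose the miRNAs. The 60 sites with a significant score in at least 2 of the 6 libraries were tested. None was called in either direction (0%, limma, adjusted p of 0.05), while 6 sites had an unadjusted p under 0.05 with more reads in late heart and 1 with fewer. Some sites are listed for 2 genes with the same reads, which leaves 56 distinct sites, of which 5 had an unadjusted p under 0.05 with more reads and 1 with fewer. At 6 of the 60 sites (10%) the libraries of the stages did not overlap, and all 6 had more reads in late heart: TAS2, ATPD, ARF16, TAS1A, TCP2 and SPL10. Full separation of 3 from 3 libraries has an exact permutation p of 0.1. A share of about 10% in either direction would thus be found without any difference between the stages.

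TAS2, a source of trans-acting siRNAs cut by miR173-5p, had 4.39, 9.63 and 12 RPM in early heart and 20.2, 15.3 and 19.8 RPM in late heart at its site (log2 change 1.09 ± 0.40, SE; limma, adjusted p = 0.24). The site of ATPD, a chloroplast ATP synthase subunit, assigned to miR159b-3p, had 4.06, 3.82 and 4.68 RPM in early heart and 12.2, 10.4 and 7.18 RPM in late heart (log2 change 1.05 ± 0.42, SE; limma, adjusted p = 0.24). That of ARF16, cut by miR160, had 0.106, 0.262 and 0.273 RPM in early heart and 1.03, 1.68 and 1.47 RPM in late heart (log2 change 0.97 ± 0.40, SE; limma, adjusted p = 0.24). The other miR160 sites had more reads and overlapped between stages: ARF10 had means of 6.78 RPM in early heart and 7.52 RPM in late heart, and ARF17 means of 5.95 and 5.64 RPM. Of the guides named for these sites, miR160 did not pass the test and miR173-5p was under the minimum, with 0, 0.600 and 0 RPM in early heart and 0.288, 1.86 and 1.82 RPM in late heart.

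The 3 tested TCP sites of the miR319 family differed in direction. The TCP4 site, assigned to miR319c, had no reads in early heart and 0, 0.374 and 0.980 RPM in late heart. The TCP2 site, assigned to miR319a, had 0, 1.2 and 0.801 RPM in early heart and 1.43, 1.60 and 1.33 RPM in late heart, and the TCP24 site, also assigned to miR319a, had 1.2, 0.325 and 0.970 RPM in early heart and 1.43, 0.401 and 0 RPM in late heart. The classical miR159 targets MYB33 and MYB65 changed by −0.14 ± 0.42 and 0.15 ± 0.39 on the log2 scale (SE, n = 3 per stage), and the HD-ZIP III gene PHB, cut by miR165 and miR166, by −0.86 ± 0.55. None of these passed the test. ARF8, cut by miR167, was the site with fewer reads, with 1.98, 0 and 2.65 RPM in early heart and none in late heart (log2 change −1.15 ± 0.42, SE; limma, adjusted p = 0.24). The number of calls was 3 higher and 0 lower without late heart replicate 3, and 0 higher and 1 lower without early heart replicate 2.

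**Figure D5:**
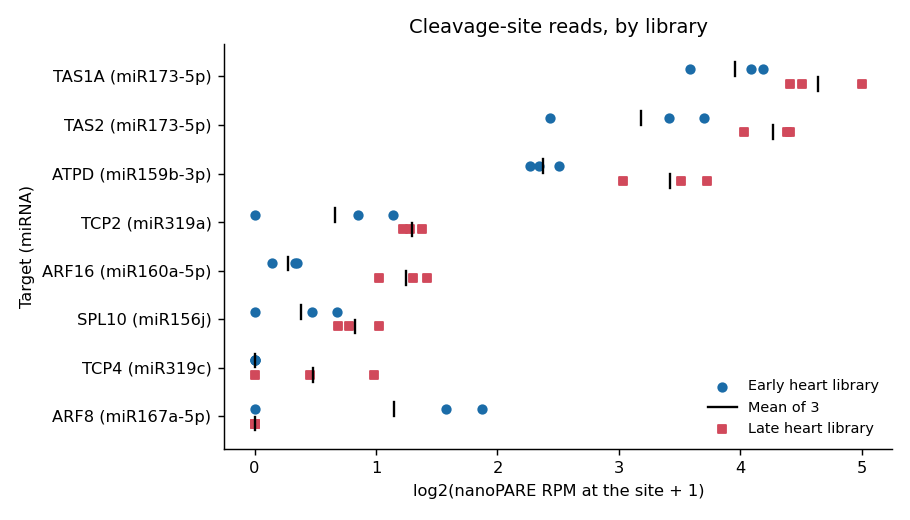
nanoPARE reads at 8 cleavage sites, as log2(RPM + 1) (x axis), with a point for each early heart and late heart library and a black bar at each mean of 3. The 6 upper sites are those without overlap between stages, TCP4 has reads in 2 late heart libraries only, and ARF8 has reads in 2 early heart libraries only.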

How the data were processed

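Small RNA reads of whole-embryo RNA were processed by the authors: adapters were trimmed with cutadapt, reads of 18 to 30 bases were aligned to TAIR10 with STAR without mismatches, and reads with several matches were reassigned among loci. The deposited tables give, for each mature miRNA, estimated counts by read length, which need not be whole, and RPM relative to genome-matching reads; the 20 to 24-base RPM column was used. The deposited nanoPARE tables give RPM at candidate cleavage sites, an Allen score for target pairing and an adjusted p-value from EndCut, used only to choose sites; a site not listed was taken as 0. Columns of the authors' p-value were not otherwise reported.

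Levels were compared as log2(RPM + 1), which understates the change of low values, with limma 3.58.1 and an intensity trend in R 4.3.3, over all miRNAs that averaged 10 RPM or more in one of the stages, with Benjamini-Hochberg adjustment at 0.05. Single values were compared by exact permutation tests in scipy 1.17.1. edgeR 4.0.16 and DESeq2 1.42.0 were run on estimated counts rounded to whole numbers. The fits were tested on simulated data. Named were the called sequences without overlap between stages, the 10 most abundant, examples from each target list, embryo-enriched miRNAs and sites of these miRNAs. The miRNAs and lists were chosen with earlier results of these data known. All 427 mature miRNAs matched a RefSeq sequence by name.

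Replicates share numbers across stages but were collected on different days. Deviations of same-numbered libraries correlated over listed miRNAs (r = 0.38, 0.71 and 0.45) and cleavage sites (0.24, 0.25 and 0.30), but not over distinct sequences (−0.39, −0.07 and −0.21). By the rule that every correlation exceed 0.1, the numbers would pair the listed miRNAs and the sites. They would not pair the distinct sequences, which come from the same small RNA libraries. Whether the libraries are paired is therefore uncertain. The main fits did not pair them, and the counts with the replicate block are given beside.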

Additional observations from a re-analysis of the deposited data

How the results depend on the processing

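For listed miRNAs, the main counts of 11 higher and 2 lower were 5 and 2 with a minimum of 1 RPM, 1 and 0 with no minimum, 1 and 3 when scaled to total miRNA reads or by TMM, 5 and 0 with 21-base reads, 6 and 2 by edgeR, and 5 and 4 by DESeq2. Lower counts were 1 with a minimum of 50 RPM and 1 with families summed. That 1 family entry held miR158b alone, because arms were grouped by name and miR158a-3p (means 1245 and 1880 RPM) formed a separate entry. The identical miR447a-3p and miR447b were likewise kept apart in the family sums. With listed miRNAs, leaving out 1 library gave 1 to 15 higher and 0 to 2 lower. The replicate block, which treats same-numbered libraries as pairs, gave 1 higher and 0 lower. For distinct sequences, alternatives added after seeing the data gave, against 12 higher and 2 lower, 4 and 3 scaled to total miRNA, 2 and 3 by TMM, 3 and 3 by DESeq2, 8 and 0 with 21-base reads, and 15 and 2 with the block. Leaving out 1 library gave 5 to 18 higher and 2 lower each time. The median log2 change of the 49 was −0.08 by TMM and −0.02 by DESeq2. Counting 21-base reads alone, 34 distinct sequences and 41 listed miRNAs reached the minimum. miR156g and miR158b, with over 91% of their RPM in 20-base reads at either stage, were not among them, so their falls were not tested there.

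Under TMM the log2 change reversed to −0.081 for miR156a to f, −0.079 for miR158a-3p, −0.13 for miR161.1, −0.11 for miR162a/b-3p, −0.019 for the miR166 guide and −0.025 for miR173-3p. Under DESeq2 it reversed to −0.015 for miR156a to f, −0.023 for miR161.1 and −0.093 for miR162a/b-3p. The direction of the other 11 of 14 called sequences held under every alternative run on distinct sequences. In those fits 4 (miR319c, miR846-3p, miR156g and miR158b) stayed past the threshold wherever they were tested. In the fits of listed miRNAs, miR846-3p, miR156g and miR158b missed it when 1 library was left out (limma, largest adjusted p 0.079, 0.093 and 0.107). miR846-3p also missed it there relative to total miRNA (limma, adjusted p = 0.071). For cleavage sites, leaving out 1 library gave 0 to 3 higher and 0 to 1 lower, and the block changed no call. The ratio of miRNAs detected at equal depth, 1.05, was 0.996 with at least 3 reads. Without the 12 sequences that rose, the ratio of total miRNA was 1.31 and the stages overlapped (exact permutation p = 0.2). The causes were not tested.

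With 3 libraries a stage, exact tests cannot pass 0.05 (smallest p 0.1, or 0.25 paired), and early heart depth limits values near 3 reads.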
